A study of Homo sapiens with 7 samples.

Results

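The replication-dependent histone genes were followed as 5 classes in poly(A)-selected RNA of HEK-293 cells, a line derived from human embryonic kidney. Members were taken by gene symbol alone: H1-1 to H1-5, and any H2AC, H2BC, H3C or H4C symbol followed by a number. This gave 68 of the 19978 genes in the table, made up of 5 H1, 17 H2A, 18 H2B, 13 H3 and 15 H4 genes. Control cells (n = 2) received DMSO, the solvent, in medium of pH 7.4 for 48 h. The SRPIN340 group (n = 2) received 10 µM SRPIN340, an inhibitor of SR protein kinases, at pH 7.4 for 48 h. By the study's methods its medium held DMSO as well. The deposited treatment protocol writes the compound with another number than the sample titles. The acidosis group (n = 3) received DMSO in medium acidified to pH 6.6 for 48 h. All 7 libraries came from this 1 cell line, and the study's methods call the samples biological repeats. The comparisons ask how transcript levels differed after prolonged mild acidification and, separately, after treatment with SRPIN340. Kinase activity is not among the values used here.

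The core histones H2A, H2B, H3 and H4 form the protein spool of the nucleosome, and the linker histone H1 binds where DNA enters and leaves it. Cells make most of them in S phase from clustered, intronless genes, so that protein supply keeps pace with DNA synthesis. Their mRNAs normally lack a poly(A) tail: they end in a short stem-loop that is bound by SLBP and cut by the U7 ribonucleoprotein. A poly(A)-selected library therefore counts the histone transcripts that were captured in spite of this, and the values below are levels of captured RNA.

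The stem-loop that marks the end of these mRNAs is shown for leading genes of each class and for H4C1, a gene that was not called, with the stem-loop in capitals and a few flanking bases on each side. The histone stem-loop, 16 letters of which 3 were allowed to be any base, was searched in GRCh38 on the gene's own strand in the 150 bases after the stop codon, and 64 of 68 members held it. H3C6, H2AC15, H2BC10 and H4C13 had no match to these letters in that window.
H1-2, chr6:26055739-26055764, minus strand: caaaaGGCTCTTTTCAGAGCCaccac
H2AC25, chr1:228457364-228457389, minus strand: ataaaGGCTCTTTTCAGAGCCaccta
H2BC21, chr1:149886183-149886208, minus strand: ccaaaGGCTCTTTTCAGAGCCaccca
H2BC26, chr1:228458533-228458558, plus strand: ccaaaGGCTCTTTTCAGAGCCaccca
H3C10, chr6:27810511-27810536, plus strand: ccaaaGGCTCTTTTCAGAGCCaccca
H4C14, chr1:149833027-149833052, plus strand: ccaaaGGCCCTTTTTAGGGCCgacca
H4C1, chr6:26022025-26022050, plus strand: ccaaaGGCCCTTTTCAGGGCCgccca
The letters in capitals were the same in H1-2, H2AC25, H2BC21, H2BC26 and H3C10, a form that 40 members shared. H4C1, with the form found in 10 members, and H4C14, with one found in 4, carried other forms. H4C1 was picked for not being called, so the genes shown do not tell whether the form goes with the call. Of the tested genes with its form, H4C2, H4C4, H4C5, H4C8 and H4C11 were called higher in acidosis, and H4C3 and H4C16 were not.

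Libraries held 13615816 to 24110460 estimated counts. Levels are given as CPM, the count of a gene per 1000000 counts of its library, after scaling by TMM, edgeR's correction for library composition. The TMM factors averaged 1.18 in control, 1.21 with SRPIN340 and 0.79 in acidosis. Of the 68 members, 43 passed edgeR's filter on low counts and 6 were at 0 in every library. The other untested members were low: all 25 untested genes summed to between 24.4 and 49.9 counts a library, except for 228 in acidosis 1, of which 169 were H3C14. A gene was called when its adjusted p was under 0.05 and its absolute log2 fold change over 1, by the quasi-likelihood test of edgeR, with p-values adjusted by Benjamini and Hochberg's method over the 14863 genes tested. The HEK-293 markers PAX2, LHX1, NEFM, NEFL and KRT18 were all detected and summed to 262 to 276 CPM in control, 284 to 286 with SRPIN340 and 345 to 362 in acidosis, where NEFM was called higher at a log2 fold change of 1.65 and PAX2 lower at -1.93. Of 6 markers of the neuroblastoma line that the study also used, TH and DBH were at 0 in every library, and the whole list summed to 44.4 to 45.6 CPM in control, 35 to 36.7 with SRPIN340 and 76.2 to 88.2 in acidosis, most of it GATA3. The part of these shifts in the histone values was not tested.

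All 5 histone classes were higher in acidosis than in control. Of the 43 tested members, 39 were called higher and 0 lower, where 14.4% of all tested genes were called higher and 19.1% lower. DESeq2 gave the same 2 counts, and no member was lower at an unadjusted p under 0.05 by either tool. The median log2 fold change was 3.50 over the tested members, or 3.43 with near-identical copies merged, and -0.052 over all tested genes. In bulk RNA, more cells that carry a transcript and more of it per cell cannot be told apart. The filter on low counts can keep a gene only because it is high in 1 group. This limit, and the 14.4% of all tested genes, also apply to the counts by class, pair, location and transcript end given below. Of the 29 tested members that had at least 10 counts in both control libraries, 26 were called higher.

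Summed over its genes, H1 stood at 30.6 and 37.5 CPM in the control libraries, 20.2 and 19.8 CPM with SRPIN340, and 920, 791 and 937 CPM in acidosis. The H2B sum was 45.8 and 51.2 CPM in control, 37.8 and 29.1 CPM with SRPIN340, and 1192, 1144 and 1217 CPM in acidosis. In both classes the lowest acidosis library lay far above the highest library at pH 7.4. The H2A sum was 32 and 40.8 CPM in control, 37.4 and 31.2 CPM with SRPIN340, and 522, 462 and 487 CPM in acidosis. H3 gave 9.82 and 10.2 CPM in control, 6.49 and 6.77 CPM with SRPIN340, and 85.1, 84.5 and 77.4 CPM in acidosis. H4 gave 23.6 and 27.5 CPM in control, 16.3 and 13.9 CPM with SRPIN340, and 180, 153 and 172 CPM in acidosis. No class sum in acidosis overlapped those of the other groups.

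**Figure D1:**
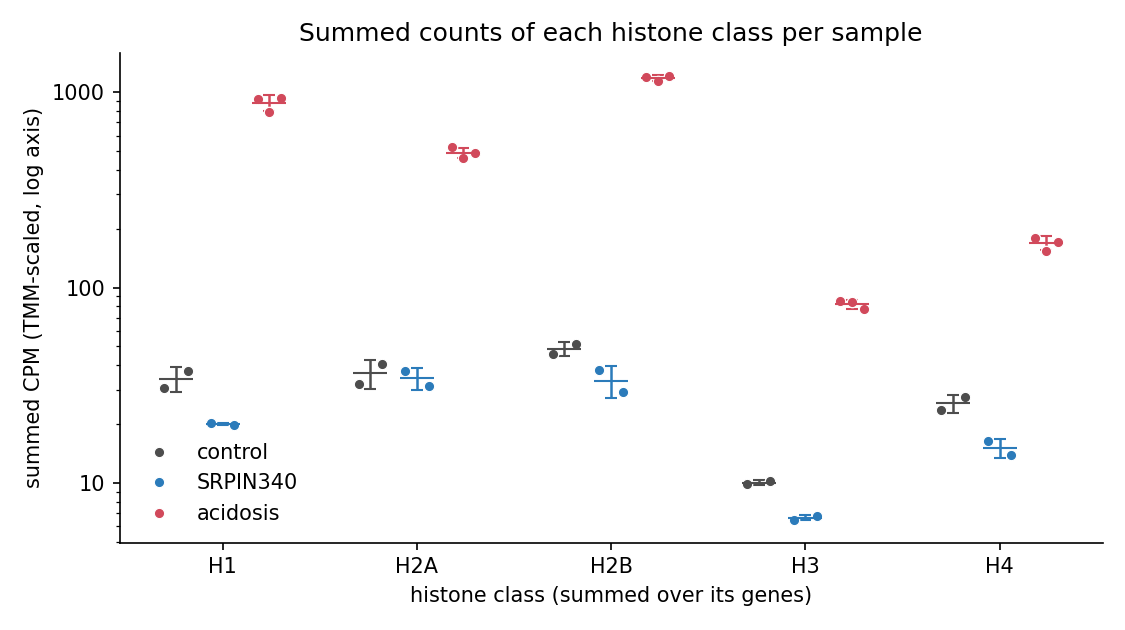
Summed CPM (log axis) of the genes of each histone class, with 1 point per library and bars for the group mean ± SD (n = 2 control, 2 SRPIN340 and 3 acidosis). The acidosis libraries stand above all others in every class, and the SRPIN340 libraries overlap the control libraries for H2A alone.

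On the log2 scale, the class sums rose by 4.70 (SE 0.167) for H1 and 4.61 (SE 0.0847) for H2B, or 26.0-fold and 24.4-fold. The difference was 3.76 (SE 0.183) for H2A, 3.04 (SE 0.0535) for H3 and 2.73 (SE 0.132) for H4, or 13.6-fold, 8.2-fold and 6.61-fold. All members together summed to 155 CPM in control (SD 18.1, n = 2) and reached 2808 CPM in acidosis (SD 150, n = 3). No test was made on the sums, and their order rests on single members. Without each class's gene of highest mean count, H2A came first at 4.15, against 3.93 for H1 and 3.84 for H2B. H4 followed at 2.80 and H3 at 2.01. For H4 this left out H4C15 but kept its near-identical copy H4C14. The place of H4 in this order without both copies was not examined. The TMM factors differed between the groups: with scaling by total count alone, which lowered the median of all genes to -0.626, the sums still differed by 4.12 for H1, 3.19 for H2A, 4.04 for H2B, 2.46 for H3 and 2.15 for H4.

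Because the classes rose by unequal amounts, the make-up of the histone counts changed. H1 took 22% of the histone counts in control and 31.4% ± 1.23 (SD, n = 3) in acidosis, and H2B went from 31.5% to 42.2% ± 1.16 (SD, n = 3). H2A fell from 23.5% to 17.5%, H3 from 6.52% to 2.94% and H4 from 16.5% to 6.00% of the counts. The ranges of control and acidosis did not overlap for any class. These are shares of counts, not corrected for gene length. No test was made on them, and the 5 shares of a library sum to 100%.

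**Figure D2:**
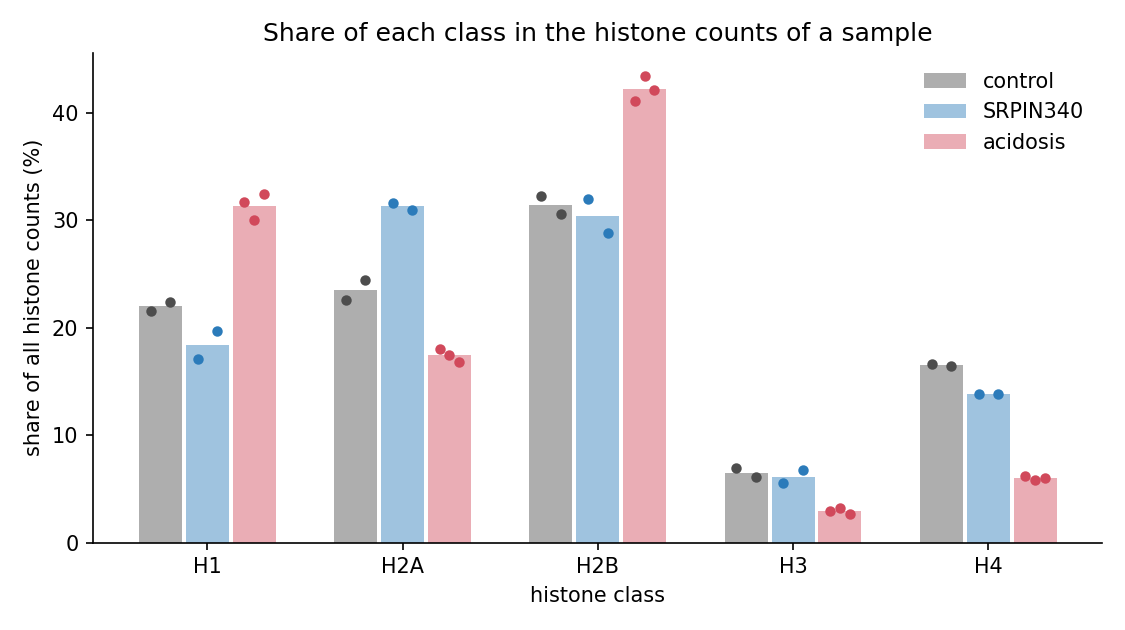
Share of the histone counts of each library (%) that fell in each class, with bars for the group mean and 1 point per library. H1 and H2B take a larger share in acidosis and H2A, H3 and H4 a smaller one, while the SRPIN340 libraries have a larger share of H2A than the control libraries.

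Among the H1 genes, which encode linker histones, H1-2 made up nearly all of the class: 93.6% of H1 counts in control and 96.2% in acidosis. Its level was 28.7 and 35.1 CPM in control, 19.2 and 18.5 CPM with SRPIN340, and 885, 758 and 904 CPM in acidosis. Per kilobase of transcript it was the most abundant member in acidosis, at 1162 CPM per kb. H1-2 rose by 4.74 on the log2 scale (SE 0.122, edgeR adjusted p = 5.33e-09). H1-4 had 1.70 and 2.12 CPM in control and 29.5, 27.6 and 27.9 CPM in acidosis, which is a log2 fold change of 3.88 (SE 0.19). H1-3 had 0.111 and 0.288 CPM in control, 0.0767 and 0.159 CPM with SRPIN340, and 4.95, 5.22 and 4.74 CPM in acidosis, a log2 fold change of 4.63 (SE 0.52). All 3 genes thus stood apart from both other groups in every acidosis library. H1-1 and H1-5 had at most 3.1 counts in any library and were not tested, so of the 5 H1 genes 3 of 3 tested were called higher.

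For H2A, the core histone that pairs with H2B, 10 of 10 tested genes were called higher, with log2 fold changes from 1.60 for H2AC20 upward. H2AC25 held the largest part of the counts in control, at 16.3 and 21.5 CPM against 23.2 and 20.5 CPM with SRPIN340 and 199, 168 and 179 CPM in acidosis. Its log2 fold change was 3.27 (SE 0.141, edgeR adjusted p = 6.83e-08). Its share of H2A counts went from 51.8% to 37.1%. The share of H2AC18 alone went from 15.8% to 32.4%, but its transcript and that of H2AC19 share all words of 31 bases, so reads cannot be assigned to one or the other. Counted together they were at 4.50 and 7.17 CPM in control and 202, 178 and 195 CPM in acidosis, and were called higher (log2 fold change 5.04, SE 0.251, edgeR adjusted p = 1.47e-07). Counted apart, H2AC19 was at 0 in all 4 libraries at pH 7.4 and at 14.6, 63.2 and 17.4 CPM in acidosis, but no fold is given for it, since counts assigned to H2AC18 could be its own. H2AC8, on chromosome 6, rose by 4.15 on the log2 scale from 1.14 and 1.44 CPM to 24.3, 20.8 and 24.5 CPM.

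For H2B, 12 of 12 tested genes were called higher, and the class held the member with the smallest adjusted p in this comparison. H2BC21 stood at 3.53 and 4.50 CPM in control, 4.83 and 4.61 CPM with SRPIN340, and 556, 560 and 525 CPM in acidosis. Its log2 fold change was 7.09 (SE 0.114, edgeR adjusted p = 3.00e-10), and its share of H2B counts went from 8.24% to 46.2%. H2BC21 (chromosome 1, 149884459 to 149886682) is annotated with 1 transcript of 2224 bases that runs 1729 bases past its stem-loop. Per kilobase of this transcript it reached 246 CPM in acidosis, below the 422 of H2BC26 and the 389 of H2BC12. H2BC26 was at 192, 172 and 215 CPM in acidosis, from 7.08 and 3.88 CPM in control, a log2 fold change of 5.13. H2BC12, the leading H2B gene in control, rose from 21.0 and 27.6 CPM to 198, 182 and 197 CPM, a log2 fold change of 2.98. H2BC8 rose by 5.54 on the log2 scale, from 1.03 and 0.505 CPM in control to 34.6, 34.6 and 38.1 CPM in acidosis. The smallest change of the class was in H2BC15, with a log2 fold change of 1.61 (SE 0.267, edgeR adjusted p = 0.000448). Without H2BC21 the H2B sum still differed by 3.84 on the log2 scale.

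For H3, whose tail carries many of the known chromatin marks, 6 of 6 tested genes were called higher and 7 were not tested. The share of all tested genes called higher was 14.4%. H3C1, H3C13 and H3C15 had under 10 counts in each control library, so the filter can have kept them through acidosis alone. H3C10 was at 3.82 and 4.10 CPM in control, 3.17 and 2.97 CPM with SRPIN340, and 59.2, 59.3 and 55.0 CPM in acidosis, a log2 fold change of 3.87 (SE 0.131, edgeR adjusted p = 1.93e-08). H3C6 was at 4.53 and 4.95 CPM in control and at 12.2, 12.2 and 10.8 CPM in acidosis, a log2 fold change of 1.31. H3C10 and H3C6 had nearly equal parts of the class in control, 39.5% and 47.2% of H3 counts. In acidosis H3C10 held 70.3% and H3C6 14.3%. Without H3C10 the H3 sum differed by 2.01 on the log2 scale. H3C13 had 3 counts over the control libraries and 24 in acidosis, a ratio of 11.4 with a 95% counting interval of 3.47 to 59.3, and its call was lost without control 2.

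H3C14 and H3C15 cannot be separated, as their transcripts share all words of 31 bases. The counts fell on H3C14 in acidosis 1, with 169 against 0 for H3C15, and on H3C15 in acidosis 2 and 3, with 88.5 and 77.6 against 0 for H3C14. Counted as 1 gene they were at 0.257 and 0.324 CPM in control and 10, 8.12 and 6.67 CPM in acidosis, and were called higher (log2 fold change 4.84, SE 0.474, edgeR adjusted p = 1.19e-05). H4C14 with H4C15 and H4C11 with H4C12 were such pairs as well, sharing 100% and 93% of their words. With all 4 pairs merged, 37 of 40 tested genes were called higher and 0 lower.

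H4 was the 1 class with members that were not called: 8 of 12 tested genes were called higher and 4 were not. H4C14 and H4C15 held most of the class and together were at 14 and 15.9 CPM in control, 11.8 and 9.08 CPM with SRPIN340, and 146, 124 and 141 CPM in acidosis. Their joint log2 fold change was 3.19 (SE 0.139, edgeR adjusted p = 6.62e-08). H4C4 was at 0.0731 and 0 CPM in control and 3.36, 2.82 and 3.45 CPM in acidosis. It had 2 counts over the control libraries and 128 in acidosis, a ratio of 91.5 with a 95% counting interval of 24.8 to 763. H4C8 was at 3.87 and 5.11 CPM in control and 11.0, 10.1 and 11.7 CPM in acidosis, a log2 fold change of 1.28. H4C8, H4C11 and H3C6 lost their calls when libraries were scaled by total count alone.

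The 4 H4 genes outside the calls were all low. H4C1 had 11.1 and 16.5 counts in control against 0, 3.72 and 2.93 in acidosis, which put every acidosis library below both controls on the CPM scale (log2 fold change -1.33, SE 0.884, edgeR adjusted p = 0.21). H4C3 was at 1.46 and 1.59 CPM in control and 1.34, 1.28 and 0.925 CPM in acidosis. Its log2 fold change was -0.34 (SE 0.43, edgeR adjusted p = 0.504), and H2BC4, a gene that overlaps it, was called higher. H4C16, the 1 member on chromosome 12, was at 1.97 and 2.02 CPM in control and spread from 0.257 to 2.57 CPM in acidosis. H4C12 had 24.2 counts in control 1 and 0 in control 2 and in all acidosis libraries, while its near copy H4C11 had the reverse pattern in the control libraries. Counted as 1 gene, H4C11 and H4C12 were called higher, with a log2 fold change of 1.99 (SE 0.374, edgeR adjusted p = 0.001).

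**Figure D3:**
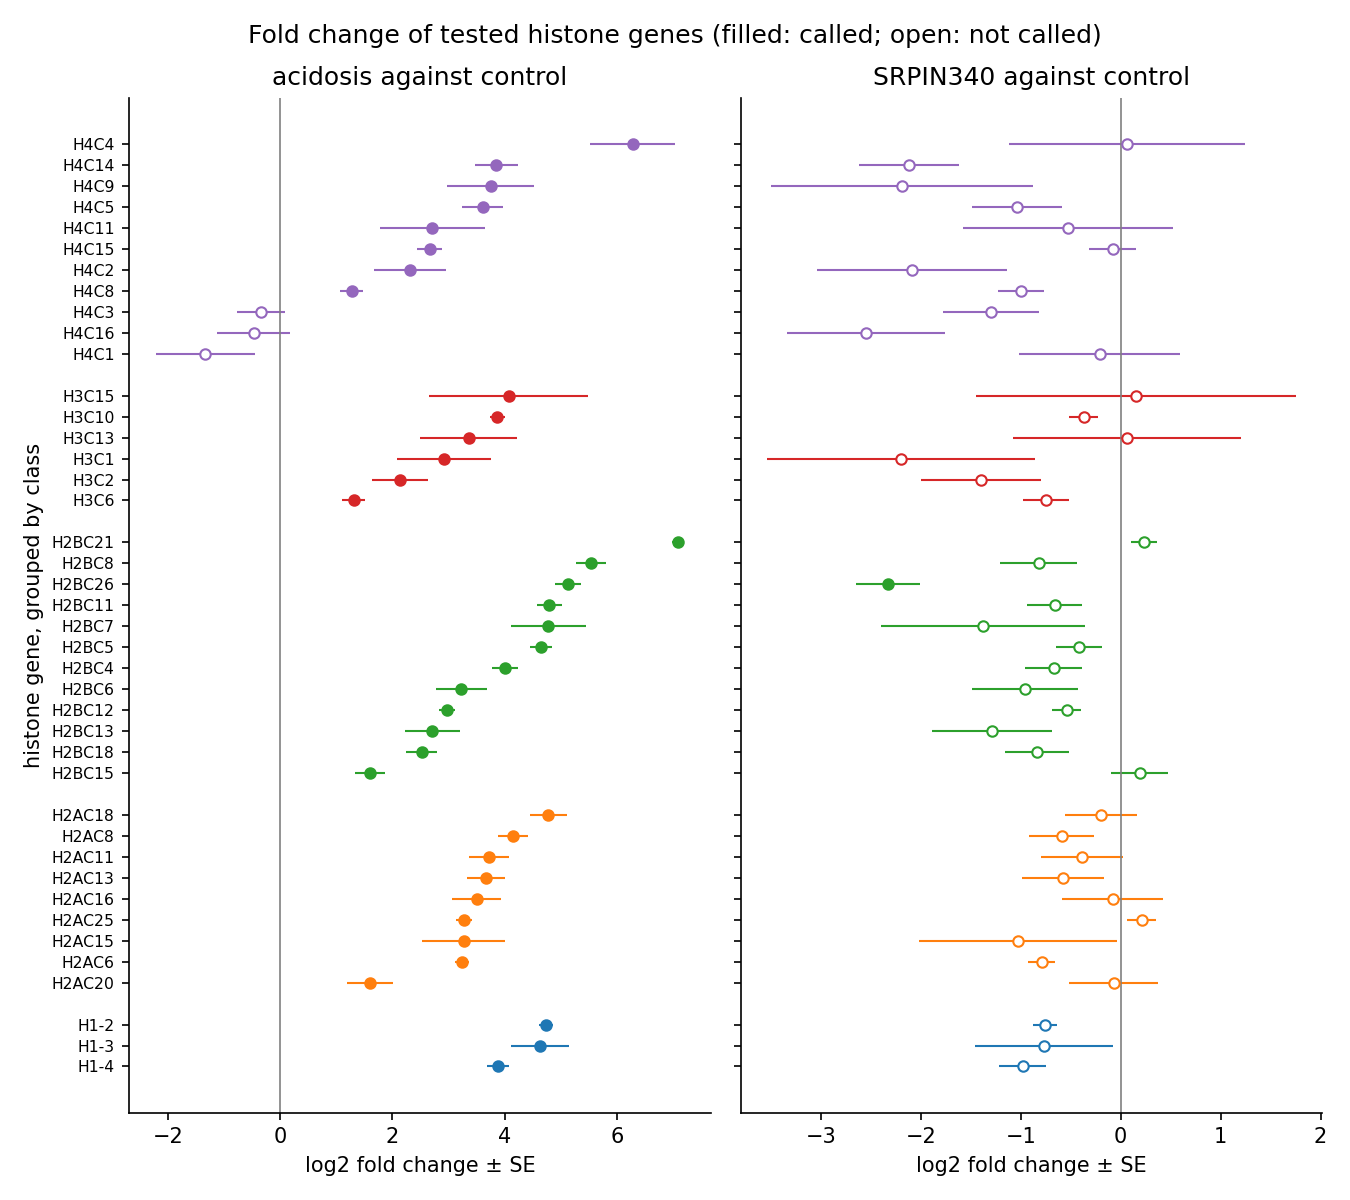
Log2 fold changes ± SE of 41 tested histone genes against control, in acidosis (left) and with SRPIN340 (right), grouped by class, with filled points for called genes and scales that differ between the panels. H2AC19 and H4C12 are left off because a group without counts leaves their fold undefined, and the panels share their control libraries.

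SRPIN340 gave differences that were mostly downward and mostly uncalled. Of the 43 tested members 1 was called lower and 0 higher, against 0.195% and 0.128% of all tested genes. DESeq2 also called 0 higher, and no member was higher at an unadjusted p under 0.05 by either tool. Lower at that unadjusted limit were 16 members by edgeR and 12 by DESeq2. The share of all tested genes at that limit is not given here. The called member was H2BC26, at 7.08 and 3.88 CPM in control and 1.00 and 1.18 CPM with SRPIN340, so that the groups did not overlap. Its log2 fold change was -2.33 (SE 0.321, edgeR adjusted p = 0.00973), and without SRPIN340 replicate 1 or 2 the call was lost, with adjusted p = 0.125 and 0.101 by the same test. H1-2 and H2AC6 passed the adjusted p alone, at log2 fold changes of -0.76 (edgeR adjusted p = 0.0183) and -0.79 (edgeR adjusted p = 0.0263). That made 3 members lower at this limit by edgeR, where 1.53% of all tested genes were. By DESeq2, 7 members were lower at an adjusted p under 0.05.

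Below those calls, 36 members had a log2 fold change under 0, 6 had one above 0 and H2AC19 had no counts in either group. The median over the tested members was -0.75, against 0.002 over all tested genes. The SRPIN340 and control libraries did not overlap, with SRPIN340 lower, for 23 of 43 members, and 26.8% of all tested genes did the same. DESeq2 called H4C8 and H4C14 lower beside H2BC26, but H4C14 counted together with its copy H4C15 had a log2 fold change of -0.52 (SE 0.147, edgeR adjusted p = 0.105). The class sums differed by -0.76 (SE 0.148) for H1, -0.55 (SE 0.206) for H2B, -0.60 (SE 0.043) for H3 and -0.76 (SE 0.16) for H4 on the log2 scale, with no overlap between the groups. The H2A sums overlapped, with a difference of -0.08 (SE 0.218). H2A therefore made up 31.3% of the histone counts with SRPIN340 against 23.5% in control, and H2AC25 alone held 63.8% of H2A counts against 51.8%.

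Acidosis stood above SRPIN340 too, in a comparison that shares its libraries with the ones already given. Of 43 tested members 40 were called higher and 0 lower, against 14.9% and 19.7% of all tested genes. DESeq2 called 39 higher and 0 lower, and no member was lower at an unadjusted p under 0.05 by either tool. H4C1, H4C3 and H4C12 were not called. The largest difference in a class sum was again in H1, at 5.46 on the log2 scale, followed by 5.16 in H2B, 3.84 in H2A, 3.63 in H3 and 3.49 in H4.

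Many H2A and H2B genes lie head to head and share the stretch between their starts. Among the members 12 such pairs were found, with starts 194 to 251 bases apart. In 7 pairs both genes were tested, and in all 7 both were called higher in acidosis, beside 14.4% of all tested genes. All 10 tested H2A genes and all 12 tested H2B genes were called higher. The count of pairs was thus fixed by the class counts and says nothing about pairing. The pairs did not rise evenly. The H2B gene had the larger log2 fold change in 5 pairs, by 0.77 for H2AC6 and H2BC4 up to 5.49 for H2AC20 and H2BC21. It had the smaller one for H2AC13 and H2BC13, by 0.96, and for H2AC15 and H2BC15, by 1.66.

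H2AC20 and H2BC21 differed most within a pair. H2AC20 was at 0.875 and 0.663 CPM in control, 0.739 and 0.729 CPM with SRPIN340, and 2.62, 2.51 and 1.89 CPM in acidosis. Its log2 fold change was 1.60 (SE 0.41, edgeR adjusted p = 0.00631) and its call was lost without control 2, whereas its neighbour H2BC21 went above 500 CPM. H2BC21 made up 80.1% and 87.2% of the pair's counts in control and 99.5% to 99.6% in acidosis. H2AC25 and H2BC26, on the long arm of chromosome 1, rose by 3.27 and 5.13 on the log2 scale, and the share of H2BC26 in the pair was 30.3% and 15.3% in control, 4.15% and 5.46% with SRPIN340 and 49.1% to 54.5% in acidosis. H2AC12, beside its called neighbour H2BC12, was untested, with 14.2 and 8.23 counts in control and 3.82, 4.70 and 2.87 in acidosis. On the CPM scale these were 0.513 and 0.289 in control and 0.224, 0.429 and 0.252 in acidosis, so the groups overlapped.

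**Figure D4:**
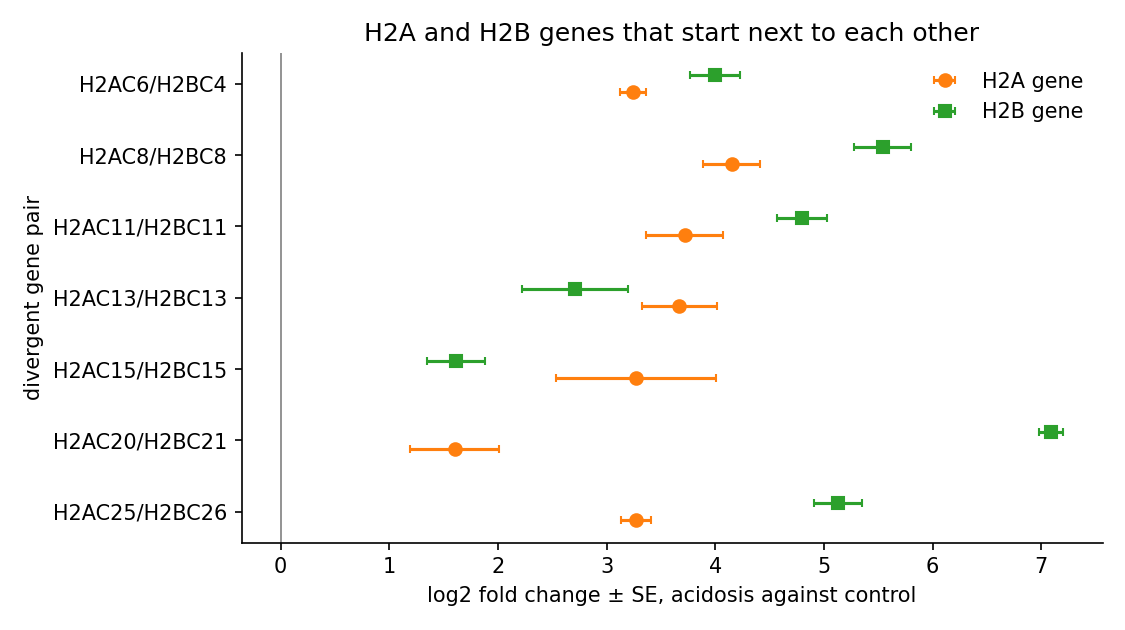
Log2 fold changes ± SE in acidosis against control of the H2A gene (circles) and the H2B gene (squares) of the 7 head-to-head pairs in which both were tested. Every point lies above 0, and the widest gap is 5.49 between H2AC20 and H2BC21.

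Many promoters of these pairs carry the octamer ATTTGCAT, a binding motif of POU2F1 (Oct-1). It was searched on both strands in the RefSeq promoters of GRCh38.p14, from 250 bases before to 50 bases after the gene start, which were held for 63 members. For the 4 members with several windows, the one nearest the start of the canonical GENCODE transcript was used. It was in 14 of 18 H2B and 11 of 16 H2A promoters, 0 of 11 H3, 0 of 5 H1 and 0 of 13 H4, against 1.77% of all 35116 promoters. Windows of paired genes overlap, so a site can count for both genes. The site of H2AC20 and H2BC21 is 1 and the same and is shown because the genes that share it differed most. The site that H2AC8 and H2BC8 share is set beside it, with the octamer in capitals.
H2AC20 and H2BC21, chr1:149886712-149886737, minus strand: ggagccctaATTTGCATaaggtggtt
H2AC8 and H2BC8, chr6:26216720-26216745, minus strand: gaattctttATTTGCATgaaaggcct
The H1 box AAACACA was in 5 of 5 H1 promoters against 5.64% of all promoters. CCAAT was in every H1, H2A, H2B and H3 promoter held and in 3 of 13 for H4, against 34.6% of all promoters. TATAAA was in 7 of 13 H4 to 12 of 16 H2A promoters, against 11.5% of all. These are matches of letters, searched on both strands, and not measured binding sites.

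By location, 54 members lay on chromosome 6 between 25723397 and 27893891, and 28 of the 31 tested there were called higher. The 11 members on chromosome 1 between 149782689 and 149887965 had 9 of 9 tested genes called higher, beside 14.4% of all tested genes. These 9 count near-identical copies apart, and H3C13 among them had 3 counts over the control libraries. Both members between 228434777 and 228463104 on the same chromosome, H2AC25 and H2BC26, were called higher. Summed over its genes, the chromosome 6 cluster went from 91.5 and 109 CPM in control to 1577, 1412 and 1612 CPM in acidosis, a log2 ratio of 3.94. The larger chromosome 1 cluster went from 24.9 and 31 CPM to 930, 884 and 882 CPM, a log2 ratio of 5.01. Of this sum, H2BC21 alone gave 3.53 and 4.50 CPM in control and 556, 560 and 525 CPM in acidosis. The ratio of this cluster thus rests largely on 1 gene, and the clusters were not tested against each other.

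Some histone genes also have annotated transcripts that run past the stem-loop, of the kind that can be polyadenylated. In GENCODE release 44, 17 members had a transcript that ended more than 100 bases after the stop codon, a grouping made after the values were seen, and 51 did not. None of the 5 H1 genes was among the 17. Both groups rose: 15 of 16 tested genes with an extended transcript and 24 of 27 without were called higher, with median log2 fold changes of 3.25 and 3.61. Of all tested genes 14.4% were called higher. The summed counts of the extended group went from 74.0 and 82.1 CPM in control to 1444, 1358 and 1432 CPM in acidosis. The others went from 67.8 and 85.2 CPM to 1456, 1277 and 1458 CPM. The extended group held 49.1% to 52.2% of the histone counts in control and 49.6% to 51.5% in acidosis.

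Within classes the split was uneven. Extended H2B genes rose by 5.39 on the log2 scale of their sum and the other H2B genes by 3.19. Single genes led both H2B sums in acidosis. H2BC21 gave 556, 560 and 525 of the 954, 921 and 975 CPM of the extended genes. H2BC12 gave 198, 182 and 197 of the 239, 223 and 241 CPM of the others. The order was the reverse for H2A, at 3.27 and 4.50. For H3 the values were 3.00 and 3.26, and for H4 2.80 and 2.25. The counts are per gene, so they do not tell which of a gene's transcripts was read.

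**Figure D5:**
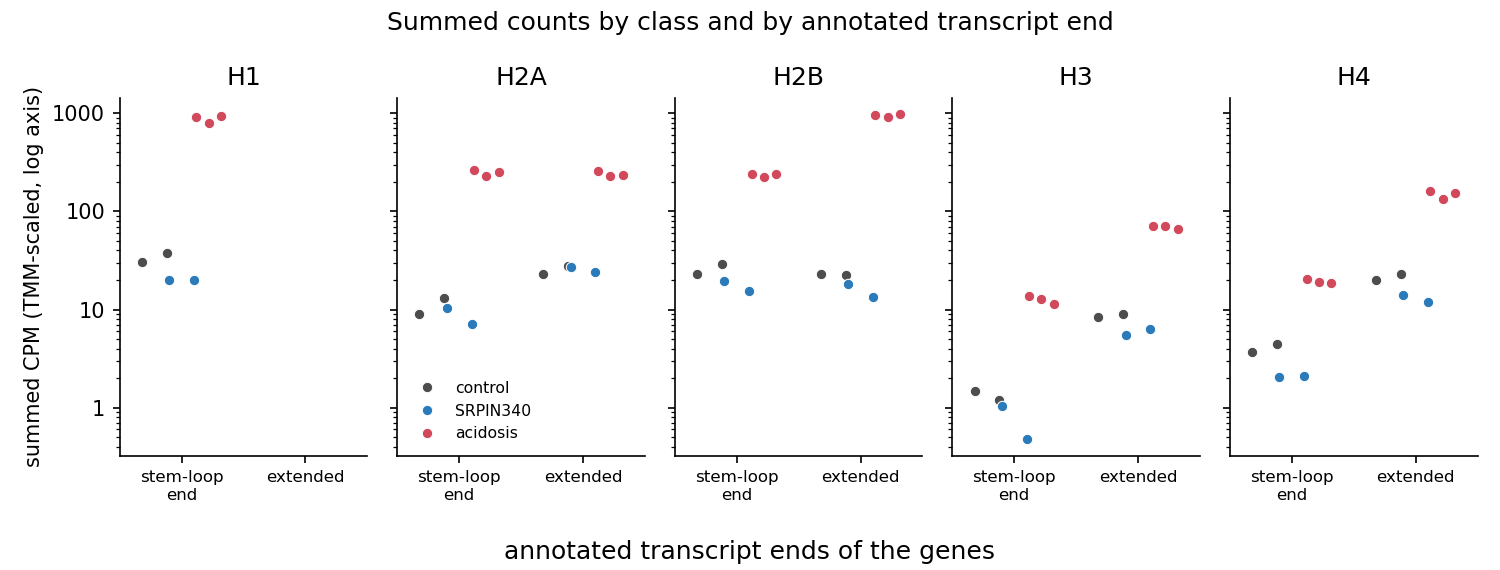
Summed CPM (log axis) by class, split into genes whose annotated transcripts end near the stem-loop and genes with an extended transcript, with 1 point per library. The acidosis libraries are highest in each column, and no H1 gene is annotated with an extended transcript.

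Genes that act on histone mRNA 3' ends were called about as often as genes in general, or less. Of 14 tested genes 2 were called higher in acidosis and 1 lower, beside 14.4% and 19.1% of all tested genes, at a median log2 fold change of 0.41, or -0.16 with scaling by total count alone. SNRPB and SNRPD3, Sm proteins that the U7 particle shares with the spliceosome, rose by 1.82 and 1.70 on the log2 scale. CPSF3, the endonuclease that cuts the histone precursor, averaged 121 CPM in control (SD 2.59, n = 2) and 49.9 CPM in acidosis (SD 3.25, n = 3), with a log2 fold change of -1.28 (SE 0.0801, edgeR adjusted p = 6.19e-07). SLBP, the stem-loop binding protein, was not called: it averaged 70.7 CPM in control (SD 5.19, n = 2) and 54.9 CPM in acidosis (SD 1.97, n = 3; log2 fold change -0.36, SE 0.0859, edgeR adjusted p = 0.00401). LSM10 and LSM11, the proteins particular to the U7 particle, had log2 fold changes of 0.84 and 0.51, and CASP8AP2 (FLASH), which binds LSM11, had 0.48. None of these 3 was called, and LSM11 and CASP8AP2 turned to -0.07 and -0.09 with scaling by total count alone.

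Of 7 genes that drive histone transcription, 3 were called higher in acidosis and 2 lower, against the same 14.4% and 19.1%. NPAT, the coactivator at histone loci, and CCNE2, a cyclin that pairs with CDK2, fell by 1.07 and 1.25 on the log2 scale. HINFP, which acts on H4 promoters, POU2F1 and CDK2 rose by 1.52, 1.63 and 1.24, of which HINFP and CDK2 lost their calls with scaling by total count alone, at 0.94 and 0.66. Of 11 genes of histone mRNA translation and decay, LSM4 and XRN1 were called higher, by 1.14 and 1.01, or an uncalled 0.56 and 0.44 with that scaling, and none was called lower by edgeR or DESeq2, with 2 lower at an unadjusted p under 0.05 by each tool. Of 9 cap-binding and elongation factors, NCBP1, the large subunit of the nuclear cap-binding complex, was called lower at -1.60 and the other 8 were not called. By edgeR, 4 of them were higher at an unadjusted p under 0.05. The medians of these last lists were 0.27 and 0.16, and -0.31 and -0.42 with scaling by total count alone, so their sign depends on the scaling.

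Replication-independent variants, most of which are made from polyadenylated mRNA throughout the cell cycle, had a smaller median than the members. Of 11 tested, 6 were called higher in acidosis and 1 lower, against 14.4% and 19.1% of all tested genes, at a median log2 fold change of 1.08, or 0.50 with scaling by total count alone. H1-10, a linker variant, rose by 2.76 on the log2 scale, and H3-3B, H2AZ2, H3-3A and H2AX rose by 1.08 to 1.32, but these last 4 were not called with that scaling. MACROH2A2, a variant of silent chromatin, fell by 2.35. Histone chaperones gave 0 of 14 called higher, by edgeR as by DESeq2, with 3 higher at an unadjusted p under 0.05 by each. The list gave 3 called lower: ASF1A at -1.43, RBBP4 at -1.32 and CHAF1B at -1.20, a share near the 19.1% of all tested genes.

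Genes of S phase and DNA replication gave 3 calls in each direction, below the 14.4% and 19.1% of all tested genes. Of 34 tested, MCM10, RRM2 and CDT1 were called higher, by 1.45, 1.27 and 1.19 on the log2 scale. RPA1, GINS4 and CDC45 were called lower, by values of -1.62, -1.25 and -1.21. The list's summed level was 4834 to 4898 CPM in control, 4020 to 4022 CPM with SRPIN340 and 4942 to 5093 CPM in acidosis. Its median log2 fold change was -0.07, or -0.64 with scaling by total count alone, and the part of the share of S phase cells in the histone values was not tested. Under that scaling its calls were 0 higher and 13 lower. Over the 9 lists, each called gene kept its sign under it, but 12 of the 18 called higher lost their call and 0 of the 12 called lower did. With SRPIN340 none of the 107 genes tested in the 9 lists was called by edgeR or DESeq2, with 6 higher and 39 lower at an unadjusted p under 0.05 in edgeR.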

How the data were processed

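RNA-seq of 7 HEK-293 samples (control n = 2, SRPIN340 n = 2, acidosis n = 3) was used. Per the study's methods and processing notes, the authors trimmed reads with Trimmomatic 0.39 and Trim Galore 0.6.6, quantified transcripts with Salmon 1.5.1 on a GENCODE transcriptome of GRCh38 and aggregated transcripts by gene through tximport. What they deposited are estimated counts of protein-coding genes, not normalized; the scaling option used in tximport is not given in the sources used here. Salmon divides reads between near-identical transcripts by estimation, so single copies are uncertain. Gene symbols, positions and transcripts came from GENCODE release 44, in which 19977 of 19978 gene IDs were found, 19325 in the same version.

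Counts were rounded and fitted with edgeR 4.0.16 (TMM, filterByExpr, quasi-likelihood test, all 7 samples in 1 fit) in R 4.3.3. DESeq2 1.42.0, other scalings, no filter, only the groups compared, a replicate block and each sample left out were the alternatives. Class sums used the unrounded counts divided by TMM-scaled library size, as differences of the groups' mean log2 sums with their SE and no test. Counting intervals are exact at 95% and cover counting error only. The tests were checked on simulated data in which few genes changed, evenly in both directions. That check cannot tell how the choice of scaling acts in acidosis, where many genes differed. Members named in the text were those leading each class by level or by fold, those not called in acidosis and those called with SRPIN340; the others were named after their values were seen. The members and lists were chosen with earlier results of these data known. P-values rest on the spread between these samples, which edgeR estimates with information shared over genes. By the study's methods each biological repeat was sequenced in replicates, whereas the deposited counts hold 1 column per repeat.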

Additional observations from a re-analysis of the deposited data

How the results depend on the processing

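Every class sum kept its direction in acidosis under every alternative run. Scaling by total count alone gave 4.12, 3.19, 4.04, 2.46 and 2.15 for H1, H2A, H2B, H3 and H4. Leaving out the member with the highest mean count gave 3.93, 4.15, 3.84 and 2.01 for H1, H2A, H2B and H3 in acidosis, and -0.92, -0.50, -0.77 and -1.39 for H1, H2A, H3 and H4 with SRPIN340. For H4 this left out H4C15 and kept its near-identical copy H4C14. Leaving out genes with an extended transcript, chosen after seeing the data, gave 4.50, 3.19, 3.26 and 2.25 for H2A, H2B, H3 and H4 in acidosis, and -0.34, -0.91 and -0.96 for H2A, H3 and H4 with SRPIN340. Without 1 library at a time, the acidosis sums ranged from 4.55 to 4.83 for H1, 3.58 to 3.92 for H2A, 4.52 to 4.67 for H2B, 3.00 to 3.08 for H3 and 2.61 to 2.82 for H4. The H2A sum with SRPIN340 ranged from -0.26 to 0.09, so its sign rests on single libraries.

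Counts of members called higher in acidosis ranged from 34 (without control 2) to 40 without 1 library, were 36 with scaling by total count alone and 40 with no filter. Members called lower ranged from 0 to 1 without 1 library, the 1 being H4C12 without control 2. With SRPIN340, the members called lower were 3 by DESeq2, 2 with no filter, 2 with only the groups compared, 3 by adjusted p alone and 0 to 2 without 1 library: 0 without either SRPIN340 library, 2 without control 1 or acidosis 2. Beside H2BC26, these calls were of H4C14, H4C8, H4C16, H1-2 or H2AC6. H3C15 counted alone lost its call in acidosis without either control library, acidosis 2 or acidosis 3. The cause of these shifts was not tested.

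No pairing by replicate number was seen: deviations of same-numbered samples correlated at 0.0051, -0.101 and 0.0604 between the groups. This check cannot exclude pairing, since the noise of single libraries can hide it. A replicate block gave 37 members called higher in acidosis and 1 lower, H4C12 (edgeR adjusted p = 0.033), and left 1 called lower with SRPIN340. Calls of members with few counts, and of near-identical copies counted apart, are limited by depth and by read assignment.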
